A study of Mus musculus with 46 samples.

Results

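Sphingolipids were described in the metabolite profiles of kidney, liver and serum from castrated male, sham-operated female and sham-operated male mice. Compounds were chosen by name alone, as those whose assigned name holds HexCer, Cer(, ceramide or sphing, or begins with SM. This rule matched 75 of the 2800 distinct compound names, or 124 of the 5760 entries in the 6 metabolite tables. By its design text, the study profiled these arms at both ages to ask how castration bears on healthy ageing. All mice were wild-type C57BL6 animals with surgery at 8 weeks of age, sampled at 12 weeks or at 18 months. The groups were castrated males, sham females and sham males at each age, and genotype, strain, housing and chow were the same for all. RNA was sequenced from kidney and liver in 46 libraries, with 6 libraries per tissue from castrated males at 12 weeks, 5 at 18 months, and 3 in each sham group. The sources used here do not say how many animals stand behind each metabolite mean.

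Sphingolipids are built on a sphingoid base. Serine palmitoyltransferase makes 3-dehydrosphinganine, which is reduced to sphinganine, acylated to dihydroceramide and desaturated to ceramide. Ceramide then receives phosphocholine to become sphingomyelin, glucose or galactose to become a hexosylceramide, or is broken down to sphingosine. Sulfatide, written SHexCer in the tables, is a hexosylceramide that carries a sulfate group. It is made by the galactosyltransferase UGT8 and the sulfotransferase GAL3ST1, and besides myelin it is a known lipid of kidney tubule membranes.

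Each metabolite table held 1 mean relative abundance per arm, with no value per animal. No spread, error or test can therefore be given for any compound, and every ratio below compares group means without a replicate check. Values are on a scale of each table's own, so levels are not compared between tables or between compounds. A limit of 2-fold was used to describe ratios, and the share of all compounds of a table past that limit is given as the background. Castrated males and females were both set against the same sham males, so the 2 comparisons are not independent.

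The names fell into 6 classes. There were 19 sulfatides in 23 entries, 22 hexosylceramides in 27, 20 sphingomyelins in 45, 6 ceramides in 9, 7 sphingoid bases and their phosphates in 16, and galactosylsphingosine in 4. Serum at 12 weeks listed 52 of its 1493 compounds by the rule, including all 19 sulfatides. Kidney listed 14 of 723 at 12 weeks and 18 of 985 at 18 months, with the sulfatides SHexCer(d34:1) and SHexCer(d34:2) at both ages. Liver listed 6 of 737 and 15 of 954, and serum at 18 months 19 of 868, none of them a sulfatide. A name such as d34:2 gives the carbons and double bonds of base and acyl chain together, so it does not say how they are split or which hexose is present.

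The kidney sulfatides were lower in castrated males and in females than in sham males at both ages. At 12 weeks SHexCer(d34:2) had a mean relative abundance of 0.992 in castrated males and 0.0415 in females, against 11.2 in sham males. The castrated male mean was 8.87% and the female mean 0.371% of the sham male mean, log2 ratios of -3.49 and -8.08. Among the 723 compounds of that table this was the third lowest ratio for castration and the lowest for sex. The female mean ranked 673 from the highest of the 723, so the size of the female ratio rests on a low value. SHexCer(d34:1), with a double bond fewer, had 0.222 in castrated males and 0.130 in females, against 1.61 in sham males. Its log2 ratios were -2.85 and -3.62, both the sixth lowest of the table.

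At 18 months SHexCer(d34:2) had 0.0225 in castrated males and 0.240 in females, against 12.8 in sham males. These means were 0.176% and 1.88% of the sham male mean, log2 ratios of -9.15 and -5.74. Each was the third lowest among 985 compounds. The castrated male mean ranked 749 from the highest and the female mean 349. SHexCer(d34:1) had 0.254 in castrated males and 0.619 in females, against 2.47 in sham males, log2 ratios of -3.28 and -2.00. The lower arm differed between the ages. At 12 weeks castrated males stood above females, by 4.58 on the log2 scale for SHexCer(d34:2) and 0.77 for SHexCer(d34:1). At 18 months they stood below females, by log2 ratios of -3.42 and -1.29.

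The sulfatide with 2 double bonds differed more from sham males than the one with 1 in each of these 4 comparisons. The ratio of SHexCer(d34:2) to SHexCer(d34:1) was 4.46 in castrated males and 0.318 in females at 12 weeks, against 6.97 in sham males. At 18 months it was 0.0885 in castrated males and 0.387 in females, against 5.18 in sham males. The 2 compounds may be detected with different efficiency, so only the differences between arms can be read from these ratios.

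**Figure D1:**
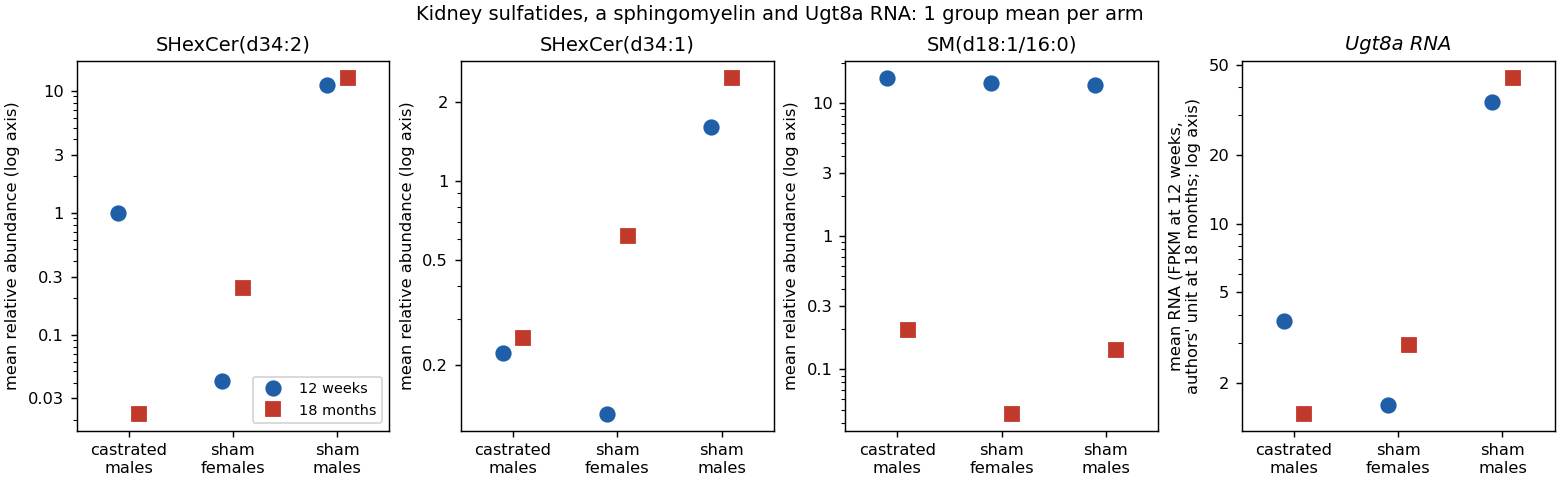
Group means in kidney of 2 sulfatides, a sphingomyelin of the same total chain composition as SHexCer(d34:1), and Ugt8a RNA, on log axes, by arm (x axis), with 12 weeks as circles and 18 months as squares. Both sulfatides and Ugt8a RNA were highest in sham males at both ages, while SM(d18:1/16:0) was not; levels are not comparable between ages.

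Kidney sphingolipids of the same total chain composition lay closer to their sham male means than the sulfatides did. N-palmitoylsphingosine, the ceramide with the composition of SHexCer(d34:1), had 0.967 in castrated males and 0.715 in females at 12 weeks, against 0.808 in sham males. SM(d18:1/16:0), a major membrane sphingomyelin, had 15.4 in castrated males and 14.2 in females, against 13.6 in sham males. At 18 months its female log2 ratio of -1.59 was near the -2.00 of SHexCer(d34:1), and its castrated male mean lay above the female mean by 2.10 on the log2 scale, the opposite of the sulfatide. At 18 months HexCer/NS(d18:1/16:0), the unsulfated hexosylceramide of that composition, had 0.0632 in castrated males and 0.0439 in females, against 0.0633 in sham males. Its name does not say whether the sugar is glucose or galactose. Galactosylsphingosine, the deacylated form of galactosylceramide, had log2 ratios of 0.00 after castration and -0.11 in females at 12 weeks, and 0.02 and 0.05 at 18 months. SM(d14:0/20:1), with the composition of SHexCer(d34:1), had log2 ratios of 0.38 and 0.37 at 12 weeks, and -0.05 and -0.63 at 18 months. SM(d14:0/20:2), with the composition of SHexCer(d34:2), had log2 ratios of -1.10 and -0.68 at 12 weeks, and 0.29 and 0.67 at 18 months.

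Of the 14 kidney sphingolipids at 12 weeks, 3 were at least 2-fold lower after castration, where 5.12% of all compounds were, and none was 2-fold higher, where 4.43% were. Beside the sulfatides the third was SM(d14:0/20:2), with 0.664 in castrated males and 0.885 in females, against 1.42 in sham males. In females only the 2 sulfatides were 2-fold lower, where 6.22% of compounds were, and none was higher, where 7.19% were. The median log2 ratio of the 14 was 0.07 for castration and -0.21 for sex, against 0.03 and 0.05 over all compounds. The median of the class thus lay near that of the table for castration and below it for sex. In females 10 of the 14 were below 0, where 45.0% of all compounds were. The sulfatides lay at the low end of the class.

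Of the 18 kidney sphingolipids at 18 months, 3 were 2-fold lower after castration, where 5.69% of compounds were, and none was higher, where 7.11% were. The third was SM(d18:1/14:0), with 0.109 in castrated males and 0.0675 in females, against 0.270 in sham males. In females 6 were 2-fold lower, where 13.5% of compounds were, and 1 was higher, where 5.58% were. Scaled to the summed abundance of each arm, 5 were lower and 3 higher. Those lower in females were the 2 sulfatides and 4 sphingomyelins. SM(d14:0/19:1) had 0.0627 in castrated males and 0.0212 in females, against 0.0964 in sham males. SM(d18:1/16:0) had 0.199 in castrated males and 0.0465 in females, against 0.140 in sham males, so that it was lower in females and not after castration. SM(d14:0/18:1) had log2 ratios of -0.26 after castration and -1.07 in females. SM(d14:0/28:1) was the compound higher in females, with 0.0641 in castrated males and 0.0724 in females, against 0.0345 in sham males. The medians of the 18 were -0.02 and -0.20, against 0.03 and -0.09 over all compounds. The other 11 lay within 2-fold in both comparisons, from -0.63 to 0.31 after castration and from -0.63 to 0.67 in females.

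**Figure D2:**
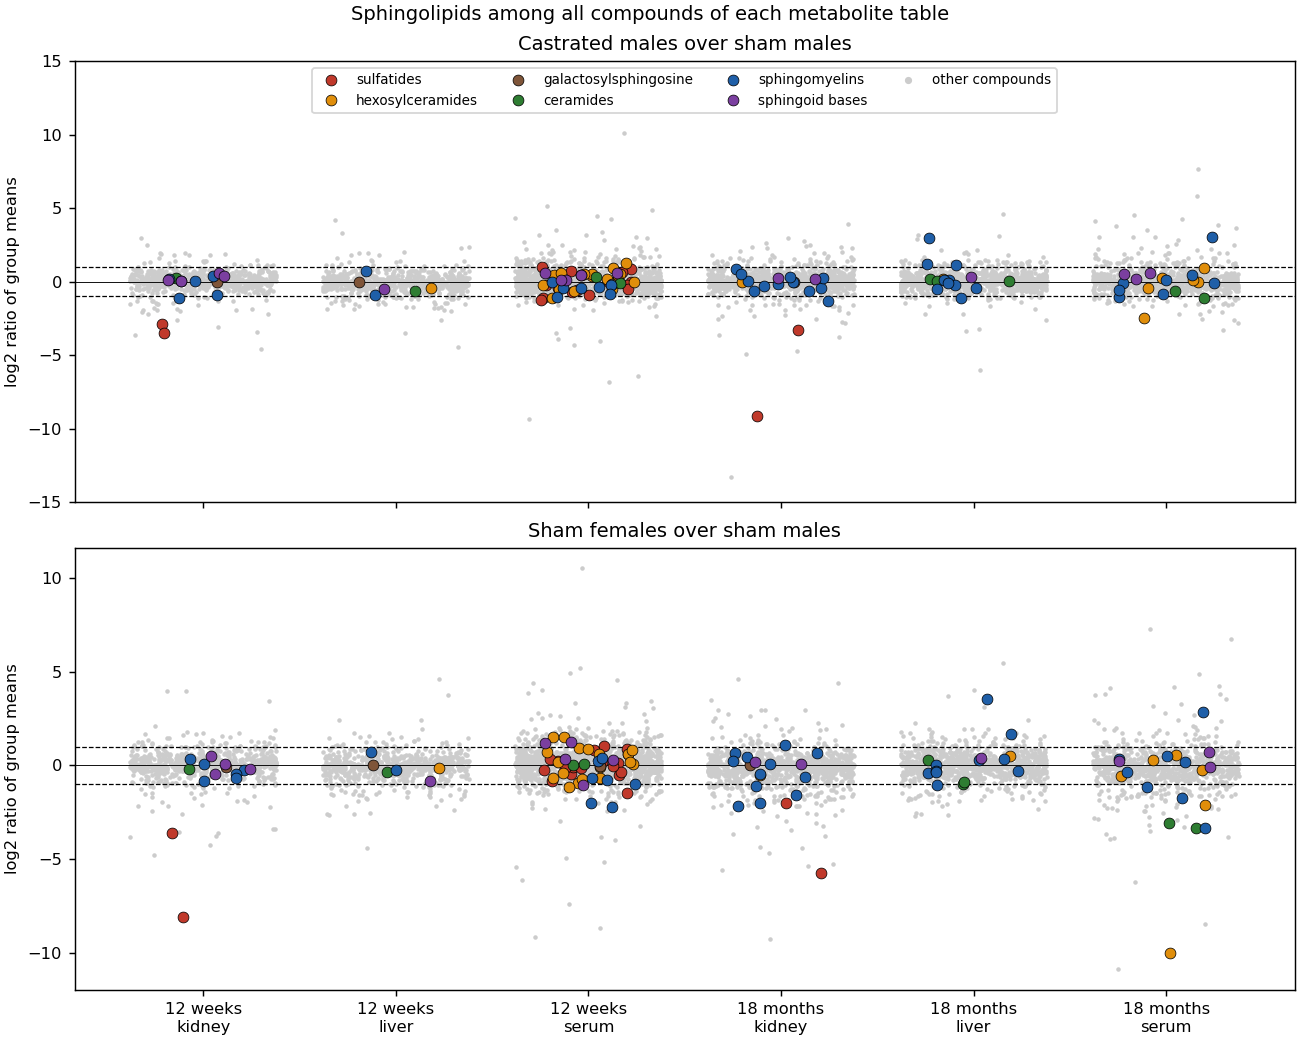
Log2 ratios of group means (y axis) for all compounds of the 6 metabolite tables (x axis), with sphingolipids coloured by class and all others in grey, for castrated males over sham males above and females over sham males below; dashed lines mark 2-fold. The red points at -2.85 to -9.15 above and -2.00 to -8.08 below are the kidney sulfatides; SHexCer(d34:2) of 12-week serum is left out, as its sham male mean is at the lowest value of its column.

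RNA of the sulfatide branch was available for the same kidney groups as the authors' group means, in FPKM at 12 weeks and in a unit that is not named at 18 months. Ugt8a, the galactosyltransferase gene on chromosome 3 (mm10, 125865271 to 125938619, minus strand), had 3.75 FPKM in castrated males and 1.61 in females at 12 weeks, against 34.4 in sham males. It fell in females by the authors' test (adjusted p = 0.000476). The 12-week table lists each gene for 1 comparison only, and Ugt8a is not listed there for castration. At 18 months Ugt8a had 1.47 in castrated males and 2.94 in females, against 43.9 in sham males. In the authors' deposited DESeq2 table the log2 fold, written as sham males over the other arm, was 4.98 with an implied standard error of 0.172 for castration (adjusted p = 1.5e-179). For females it was 4.01 with an implied standard error of 0.392 (adjusted p = 2.8e-22).

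The order of the arms in Ugt8a RNA was that of both sulfatides at each age. Castrated males were above females at 12 weeks and below them at 18 months, and sham males were highest at both. The difference between castrated males and females at 18 months passed the authors' test, with a log2 fold of 0.97 written as females over castrated males and an implied standard error of 0.291 (adjusted p = 0.0182). With 3 arms at each age this is a description of order and not a test of a relation. In bulk tissue, fewer cells of a type and less RNA per cell cannot be told apart.

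No other gene of the branch had this order at both ages, while Mal had it at 12 weeks, and Galc and Psap at 18 months. Gal3st1, the sulfotransferase gene on chromosome 11 (mm10, 3983636 to 3999326, plus strand), had 13.5 FPKM in castrated males and 16.8 in females at 12 weeks, against 10.9 in sham males. It rose in females (authors' adjusted p = 0.00326), and castration was not listed for it. At 18 months it had 14.5 in castrated males and 20.2 in females, against 10.1 in sham males, and it rose in both (authors' DESeq2 adjusted p = 0.0427 and 8.9e-06). The means of Gal3st1, the enzyme that adds the sulfate, were thus lowest in the arm with the most SHexCer.

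Galc, the lysosomal galactosylceramidase, had 9.44 FPKM in castrated males and 9.76 in females at 12 weeks, against 16.3 in sham males, and fell after castration (authors' adjusted p = 0.000476). At 18 months it had 23.7 in castrated males and 32.03 in females, against 34.7 in sham males, and fell after castration (authors' DESeq2 adjusted p = 5.6e-09, and 0.29 in females). The authors' deposited log2 fold of females over castrated males was 0.45 for Galc, with an implied standard error of 0.128 (DESeq2 adjusted p = 0.0118). Arsa, the arylsulfatase that removes the sulfate, had 5.97 in castrated males and 5.94 in females at 18 months, against 3.95 in sham males, and rose in both (authors' DESeq2 adjusted p = 0.00333 and 0.0477). Psap, whose product supplies the saposins needed for sulfatide breakdown, had 538 in castrated males and 689 in females, against 785 in sham males, and fell in both (adjusted p = 1.7e-18 and 0.0471). Mal, which encodes a protein of glycolipid-rich membranes, had 136 in castrated males and 150 in females, against 79.5 in sham males, and rose in both (adjusted p = 9.1e-14 and 5.4e-19). Papss1 and Papss2, which make the sulfate donor, were not called after castration at 18 months, and Papss2 rose in females (adjusted p = 0.0193). At 12 weeks Psap and Papss1 fell after castration, each at an adjusted p of 0.000476.

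In the wider pathway, 62 of 65 chosen genes were measured at 12 weeks and 63 at 18 months. In kidney at 18 months 26 of 63 fell after castration and 13 rose, where 13.1% of all tested genes fell and 9.56% rose. In females 16 of 63 fell and 14 rose, where 8.9% and 7.91% of tested genes did. Degs2, whose product desaturates and hydroxylates dihydroceramide, had 6.98 in castrated males and 8.77 in females, against 33.0 in sham males. It fell in both (authors' DESeq2 adjusted p = 1.5e-21 and 1.0e-14). Sptlc3, a serine palmitoyltransferase subunit, had 2.60 in castrated males and 1.98 in females, against 0.333 in sham males, and rose in both (adjusted p = 1.2e-15 and 1.6e-08). Aldh3a2, which oxidises the fatty aldehyde released when sphingosine phosphate is broken down, had 49.7 in castrated males and 51.9 in females, against 114 in sham males, and fell in both (adjusted p = 5.6e-36 and 1.4e-28). B4galt5, a lactosylceramide synthase, had 13.2 in castrated males and 31.8 in females, against 37.0 in sham males, and fell after castration (adjusted p = 3.6e-26). The median difference over expressed genes, taken as those reaching 1 in any arm, was 0.13 after castration and 0.11 in females on the log2(mean + 1) scale. Over the pathway genes it was 0.04 and 0.09. All 63 measured pathway genes were kept, without that expression limit, so the medians are not over like sets.

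At 12 weeks 23 of the pathway genes were listed for castration in kidney. Of these 18 fell and 2 rose, where 26.0% of listed genes fell and 22.6% rose. Degs2 had 3.10 FPKM in castrated males and 3.44 in females, against 29.8 in sham males. B4galt5 had 5.27 in castrated males and 9.59 in females, against 29.4 in sham males. Both fell after castration, as did Plekha8, a glucosylceramide-binding protein gene, Smpdl3a, a phosphodiesterase gene related to acid sphingomyelinase, and Aldh3a2 (authors' adjusted p = 0.000476 for each). Of 15 genes listed for sex 6 fell in females and 7 rose, where 39.7% and 41.8% of listed genes did. Most genes listed for sex were called, so the number called says little on the pathway. Over all 62 measured pathway genes, without a test, 11 were at least 2-fold lower in females on mean + 1 and 1 was higher, where 5.24% and 4.91% of expressed genes were. After castration 8 were lower and 1 higher by that limit, where 3.77% and 2.61% were. Some genes past 2-fold in females on mean + 1 were also called for sex by the authors' test. Beside Ugt8a they included Degs1, the main dihydroceramide desaturase gene, Glb1, the beta-galactosidase gene, and Sphk1, a sphingosine kinase gene. Degs1 had 21.3 FPKM in females against 55.7 in sham males and Glb1 had 28.5 against 59.1, and both fell. Sphk1 rose, with 7.15 in females against 2.69 in sham males.

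The kidney RNA carried kidney markers in every group, with all 5 of Umod, Slc34a1, Nphs1, Slc12a3 and Aqp2 at a mean of at least 1, and none of them reached 1 in liver. Their levels differed between arms. Castrated males and females had more Nphs1, Slc12a3 and Aqp2 and less Slc34a1 than sham males at both ages. Umod was lower in both at 12 weeks and higher at 18 months. Female Aqp2 was 114 and 231 at the 2 ages, against 58.1 and 106 in sham males. Female Slc34a1 was 1199 and 1536, against 1533 and 2692. Myelin also holds sulfatide. Of 5 myelin and Schwann cell markers 3 reached 1 in kidney. Their summed mean was 11.1 in castrated males and 11.9 in females at 12 weeks, against 8.02 in sham males, and 14.8 and 13.4 at 18 months, against 9.45. Mag, a myelin protein gene, stayed at or under 0.318 in each kidney group. The summed mean of the myelin markers was lowest in sham males at both ages, but Cnp at 12 weeks was not. Cnp had 2.88 in castrated males and 3.66 in females, against 2.98 in sham males. Liver markers in kidney summed to 230 in castrated males and 85.9 in females at 12 weeks, against 1169 in sham males. Most of the sham male sum was Cyp2e1, a cytochrome that kidney also expresses, at 1003. Not all of these markers followed the sum. In castrated males Serpina1a was higher, at 85.1 against 19.6 in sham males, and Alb was 8.97 against 8.78. Apoa1 and Ttr were lower. In females Alb and Apoa1 were higher, at 10.3 and 4.57 against 8.78 and 2.71, while Ttr and Serpina1a were lower. At 18 months the sums were 585 and 213, against 1431, with Cyp2e1 at 1233 in sham males. The part of cell makeup in the sulfatide difference was not tested.

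In 12-week serum neither sulfatide that kidney also listed followed the kidney's order of arms. SHexCer(d34:1) had 1.12e-06 in castrated males and 1.46e-06 in females, against 1.15e-06 in sham males, log2 ratios of -0.04 and 0.34. SHexCer(d34:2) had 1.06e-06 in castrated males and 3.50e-07 in females, against 3.01e-09 in sham males. The sham male value is the lowest of its column and is shared by 17 compounds, so no ratio is given for it. Sham males were thus the lowest arm here and the highest in kidney, while castrated males stood above females in kidney and serum of that age. Of the 19 serum sulfatides 12 were lower after castration, 6 higher and 1 equal, where 53.0% of all compounds were lower and 46.3% higher. In females 10 were lower and 9 higher, where 43.2% of all compounds were lower and 56.4% higher. The medians of the 19 sulfatides were -0.04 and -0.02, against -0.04 and 0.07 over all 1493 compounds.

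Sulfatides without double bonds lay lower after castration in 4 of 5 cases, where 53.0% of all compounds did, with a median of -0.58. Of those with 1 double bond 3 were lower, 3 higher and 1 equal. Of those with 2 double bonds 3 were lower and 2 higher, and the 2 with 3 double bonds were lower. SHexCer(d34:0) had 4.39e-07 in castrated males and 1.25e-06 in females, against 1.06e-06 in sham males. SHexCer(d28:2) was lower in both arms, with 3.51e-07 in castrated males and 2.76e-07 in females, against 7.59e-07 in sham males. SHexCer(d33:1) was 2-fold higher in females, with 9.50e-06 in castrated males and 1.06e-05 in females, against 5.19e-06 in sham males. The 2 hexosylceramides without double bonds were higher after castration. Of those with 2 double bonds 3 were lower and 3 higher, and of those with 4 double bonds 1 was lower and 2 higher. The single ones with 3 and with 5 double bonds were lower. Hexosylceramides with 1 double bond were all 5 higher after castration, where 46.3% of all compounds were. Their median was 0.56, and their female median was 0.74. Among them HexCer/AP(t18:0/15:1), named as a phytosphingosine-type lipid with a hydroxylated acyl chain, had 1.42e-05 in castrated males and 1.66e-05 in females, against 5.75e-06 in sham males. HexCer/AP(t20:2/15:1), with 3 double bonds, had 2.56e-05 in castrated males and 3.44e-05 in females, against 5.50e-05 in sham males. HexCer/NS(d18:1/18:1) was higher in females, at 6.27e-07 in castrated males and 1.22e-06 in females, against 4.30e-07 in sham males. HexCer/NS(d23:3/16:1) was lower in females, at 9.59e-05 in castrated males and 3.15e-05 in females, against 7.00e-05 in sham males. The counts per number of double bonds are small, and several of the names hold odd or unusual chain lengths that rest on the authors' spectrum matching.

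**Figure D3:**
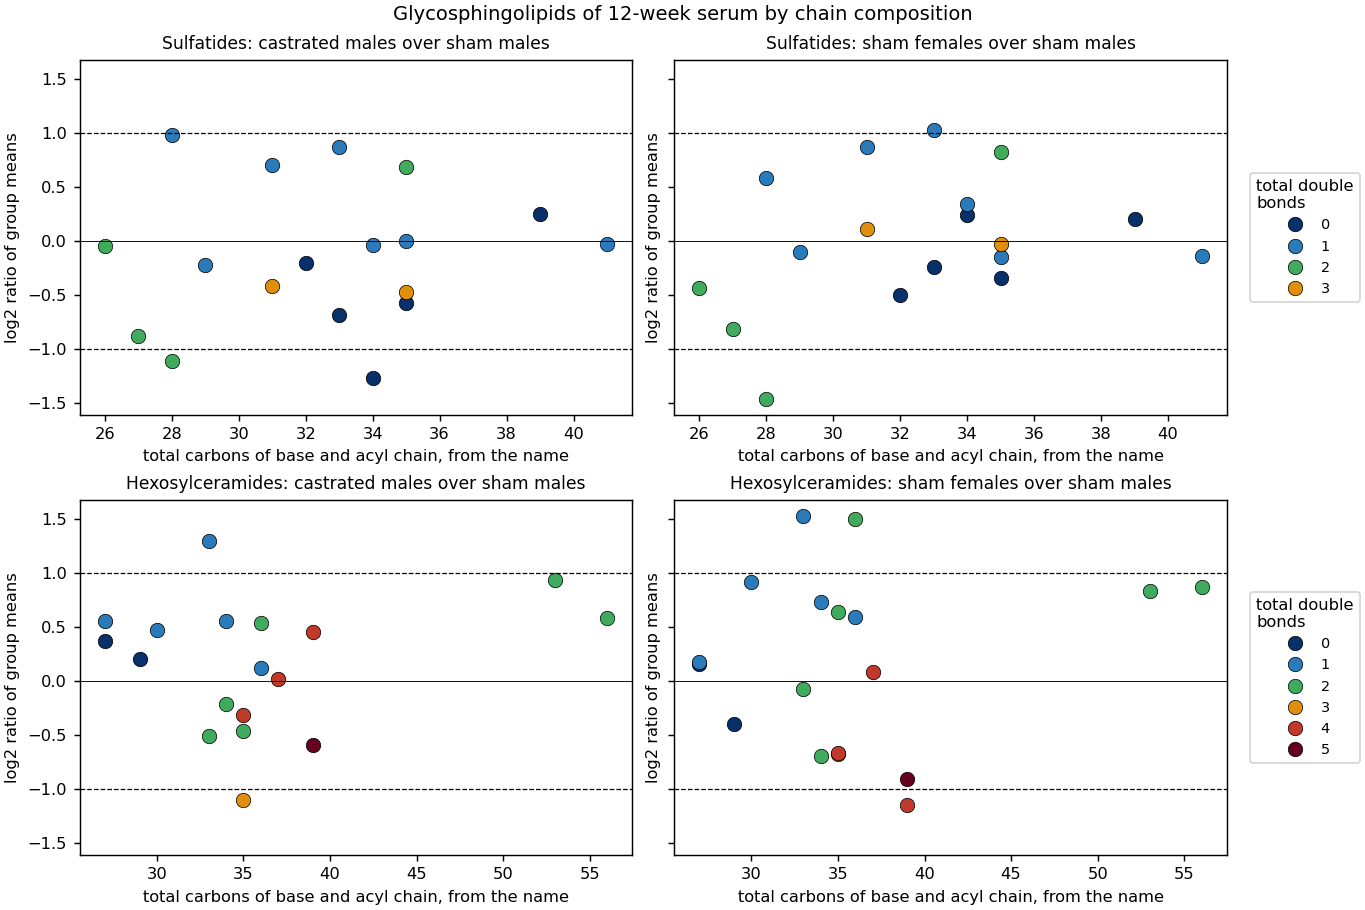
Log2 ratios of group means (y axis) of sulfatides (top) and hexosylceramides (bottom) in 12-week serum against total chain carbons read from the name (x axis), coloured by total double bonds, for castrated males (left) and females (right) over sham males; dashed lines mark 2-fold. Sulfatides scatter on both sides of 0, with 12 lower and 6 higher after castration over all 19; SHexCer(d34:2) is left out, as its sham male mean is at the lowest value of its column.

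Sphingoid bases and sphingomyelins of 12-week serum lay on opposite sides after castration. All 5 sphingoid bases were higher, where 46.3% of the 1493 compounds were, with a median of 0.47. Sphingosine, the base released from ceramide, had 8.58e-06 in castrated males and 1.36e-05 in females, against 5.61e-06 in sham males. 3-Dehydrosphinganine, the first product of the pathway, had 5.73e-06 in castrated males and 9.41e-06 in females, against 4.14e-06 in sham males. Sphinganine differed in direction between the arms, with 4.79e-06 in castrated males and 1.56e-06 in females, against 3.24e-06 in sham males. Of 7 sphingomyelins 6 were lower after castration, where 53.0% of compounds were, with a median of -0.39. SM(d14:0/14:0) had 1.37e-06 in castrated males and 3.51e-07 in females, against 1.62e-06 in sham males. SM(d14:0/20:2) had 1.19e-05 in castrated males and 1.43e-05 in females, against 2.41e-05 in sham males. Of the 52 sphingolipids in 12-week serum, 4 were 2-fold lower and 2 higher after castration, where 4.02% and 8.77% of compounds were, and 5 were lower and 6 higher in females, where 7.23% and 11.2% were. Centred on the median of all compounds, 3 were lower and 3 higher after castration and 6 lower and 5 higher in females. The counts higher include SHexCer(d34:2). As shares of the 52 they were 7.69% and 3.85% after castration and 9.62% and 11.5% in females, near the background in females.

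Serum at 18 months held 19 sphingolipids, and its largest differences were in females. Of the 19, 7 were 2-fold lower in females and 1 higher, where 13.2% and 8.18% of all 868 compounds were. After castration 3 were lower and 1 higher, where 5.65% and 9.68% were, but 1 was lower and 2 higher when each arm was scaled to its summed abundance. HexCer/NS(d18:1/24:2) had 0.154 in castrated males and 0.000836 in females, against 0.855 in sham males. Its log2 ratios of -2.48 and -10.00 were the fifth lowest and the second lowest of the table. The female mean ranked 866 from the highest of 868 compounds, so the size of the female ratio rests on a value near the bottom of its column. N-palmitoylsphingosine had 1.01 in castrated males and 0.181 in females, against 1.54 in sham males. Cer(t18:0/16:0), a phytoceramide, had 0.0929 in castrated males and 0.0204 in females, against 0.203 in sham males. Both ceramides of this table were therefore lower in both arms.

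Among the sphingomyelins of 18-month serum, SM(d14:0/18:1) had 0.0163 in castrated males and 0.00297 in females, against 0.0297 in sham males. SM(d14:0/19:1) had 0.102 in castrated males and 0.0635 in females, against 0.208 in sham males. SM(d14:0/20:1) had 0.670 in castrated males and 0.322 in females, against 0.716 in sham males. HexCer/NS(d18:1/20:1) had 0.0281 in castrated males and 0.00858 in females, against 0.0369 in sham males. In each of these the female mean was the lowest and the castrated male mean lay between the others. SM(d14:0/22:2) went the other way, with 0.163 in castrated males and 0.146 in females, against 0.0203 in sham males. The median over the 19 was 0.01 after castration and -0.26 in females, against 0.00 and -0.08 over all compounds.

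A pair of names in that table shared a composition and differed in direction. Glucosylceramide (d18:1/16:0) had 3.78 in castrated males and 2.51 in females, against 3.76 in sham males. HexCer/NS(d18:1/16:0), whose name does not give the sugar, had 2.35 in castrated males and 2.84 in females, against 1.93 in sham males. The female log2 ratios were -0.59 and 0.56. The remaining compounds of 18-month serum, among them sphingosine 1-phosphate, a circulating lipid mediator, lay within 2-fold in both comparisons.

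**Figure D4:**
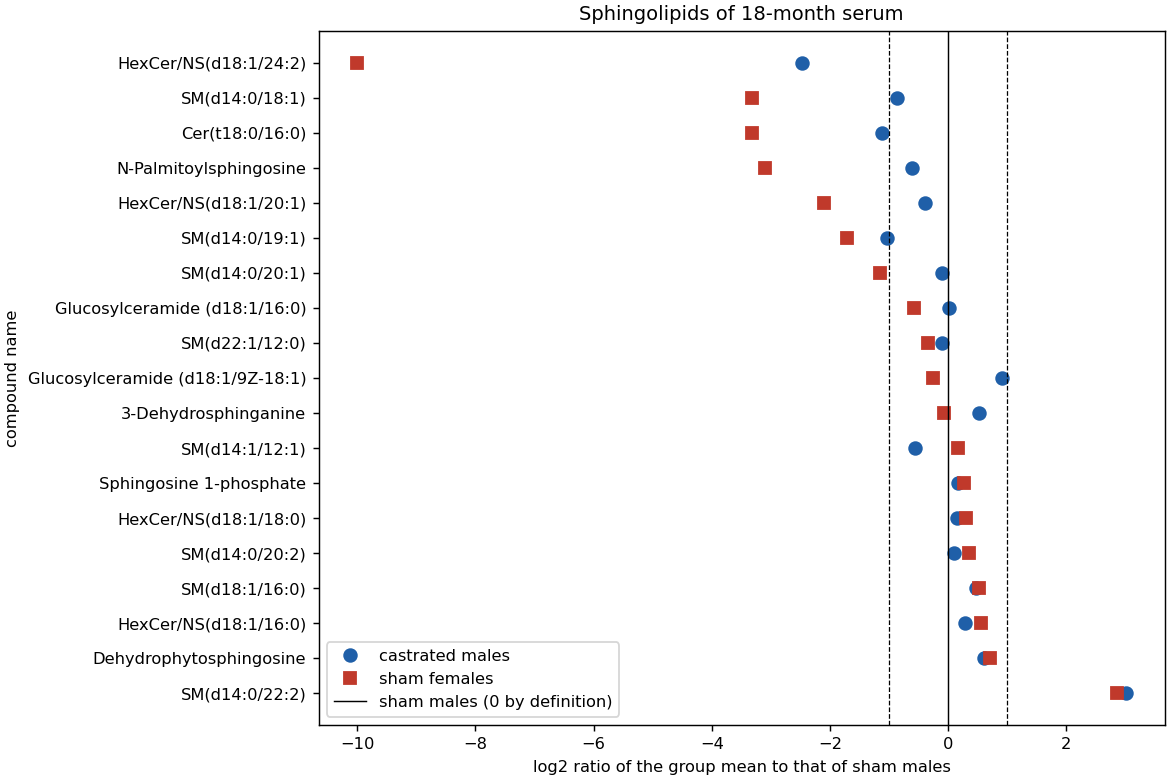
Log2 ratio of the group mean to that of sham males (x axis) for the 19 sphingolipids of 18-month serum (y axis), with castrated males as circles, females as squares, sham males at the solid line and dashed lines at 2-fold. In 7 compounds the female mean was at least 2-fold lower, down to -10.00, and SM(d14:0/22:2) was at 3.01 in castrated males and 2.85 in females. The point at -10.00 is HexCer/NS(d18:1/24:2), whose female mean ranked 866 from the highest of 868 compounds.

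None of the 6 sphingolipids of 12-week liver was past 2-fold in either comparison, where 6.51% of all compounds were lower and 3.53% higher after castration, and 7.87% and 4.21% in females. After castration 5 of the 6 were lower, where 56.7% of all compounds were. The median was -0.46 after castration and -0.17 in females, against -0.06 and -0.03 over all 737 compounds. N-palmitoylsphingosine had 0.0474 in castrated males and 0.0595 in females, against 0.0748 in sham males. SM(d18:1/16:0) was the 1 compound higher after castration, with 0.0509 in castrated males and 0.0508 in females, against 0.0307 in sham males.

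Liver at 18 months held 15, of which 1 was 2-fold lower and 3 higher after castration, where 3.35% and 7.13% of compounds were. In females 2 were lower and 2 higher, where 6.71% and 6.81% were, and none was lower and 2 higher when scaled to the summed abundance. SM(d14:0/22:2) had 0.0102 in castrated males and 0.0151 in females, against 0.00131 in sham males, log2 ratios of 2.96 and 3.52. Its sham male mean ranked 949 from the highest of 954 compounds, so these ratios rest on a value near the bottom of its column. SM(d14:0/22:2) was also the sphingolipid with the highest ratio in serum of that age, and it was not listed at 12 weeks or in kidney. SM(d18:1/16:0) had 0.00862 in castrated males and 0.0126 in females, against 0.00398 in sham males, which ranked 927 from the highest. SM(d18:0/16:0), its dihydro form, had 0.406 in castrated males and 0.222 in females, against 0.175 in sham males. SM(d14:0/20:1) was lower after castration, with 0.372 in castrated males and 0.991 in females, against 0.797 in sham males. SM(d14:0/20:2) had 0.0271 in castrated males and 0.0152 in females, against 0.0319 in sham males. Cer(d18:1/22:1(13Z)), a long-chain ceramide, had 0.0140 in castrated males and 0.00607 in females, against 0.0122 in sham males. The medians of the 15 were 0.12 and 0.03, against 0.04 and 0.05 over all 954 compounds.

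Sulfatide-branch RNA in liver was low at its first step, with Ugt8a at or under 0.133 in each liver group. The liver marker Alb stood at 0.01 in each 12-week liver group and at 45204 or more in each 18-month one. A low 12-week liver value may therefore understate expression. Arsa had 8.65 FPKM in castrated males and 6.25 in females at 12 weeks, against 26.4 in sham males, and fell after castration (authors' adjusted p = 0.000856). At 18 months it had 12.8 in castrated males and 5.24 in females, against 21.5 in sham males, and fell in females (authors' DESeq2 adjusted p = 1.5e-12, and 0.44 after castration). Of 27 pathway genes listed for castration in 12-week liver 6 fell and 5 rose, where 12.8% and 12.1% of listed genes did. Cers6, a ceramide synthase gene, had 8.20 FPKM in castrated males against 1.80 in sham males, and Ugcg, the glucosylceramide synthase gene, had 14.2 against 5.46, and both rose, as did Papss2 (authors' adjusted p = 0.000856 for each). For sex 4 genes were listed, of which 2 fell and 2 rose, where 52.9% and 47.1% of listed genes did. Of all 628 genes listed for sex there, 332 fell and 296 rose. Being listed thus fixed being called, and that the 4 were called says nothing on the pathway. At 18 months 1 of 62 fell and 2 rose after castration, where 1.01% and 1.08% of tested genes did, and 4 of 63 fell and 10 rose in females, where 3.91% and 5.87% did. St3gal5, the ganglioside GM3 synthase gene, had 171.2 in castrated males and 171.3 in females, against 79.5 in sham males. It rose in both arms (authors' DESeq2 adjusted p = 0.0274 and 0.0117). In females Papss2, Gltp, a glycolipid transfer protein gene, and Cerk, the ceramide kinase gene, rose too, at adjusted p of 0.00069, 0.0015 and 0.0417. The median difference over expressed liver genes at 18 months was 0.13 after castration and 0.14 in females.

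Across the 6 tables, 55 of the 75 names were listed once and 13 in at least 3 tables. SM(d14:0/19:1), a sphingomyelin with an odd total of 33 chain carbons, was the only one listed in all 6. It was lower in all 6 after castration, with log2 ratios of -0.47 to -1.03, and lower in all 6 in females, with ratios of -0.24 to -2.19. In 12-week kidney it had 1.51 in castrated males and 2.07 in females, against 2.82 in sham males. In 12-week liver it had 0.0124 in castrated males and 0.0193 in females, against 0.0227 in sham males. In 12-week serum it had 8.68e-06 in castrated males and 3.82e-06 in females, against 1.51e-05 in sham males. In 18-month liver it had 0.00543 in castrated males and 0.00613 in females, against 0.00754 in sham males. Of the 121 compounds listed in all 6 tables, 5 were lower in all 6 after castration and 5 higher, while 1 was lower in all 6 in females and 6 higher. This sphingomyelin alone was lower in all 6 in both comparisons.

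Some other recurring compounds kept their direction in at least 1 comparison. The share of all compounds that did so over 3, 4 or 5 tables was not computed, so these directions have no background. SM(d18:1/16:0) was higher after castration in each of its 5 tables, by 0.19 to 1.11 on the log2 scale, and in females higher in 4 and lower in 18-month kidney. SM(d14:0/20:1), of the same total chain composition, was lower after castration in 4 of its 5 tables and higher in 1. N-palmitoylsphingosine was lower in females in each of its 4 tables, by log2 ratios of -0.18 to -3.09, and after castration lower in 2 and higher in 2. 3-Dehydrosphinganine was higher after castration in each of 4 tables, by 0.16 to 0.60, and 2 of its 4 female ratios were below 0. Sphingosine was higher in each of its 3 tables, by 0.07 to 0.61 after castration and by 0.09 to 1.28 in females. Galactosylsphingosine stayed between -0.15 and 0.05 in both comparisons in its 4 tables. N,N-dimethylsphingosine, SM(d14:0/18:1), SM(d14:0/20:1), SM(d14:0/20:2) and HexCer/NS(d18:1/16:0) changed direction between tables in both comparisons.

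**Figure D5:**
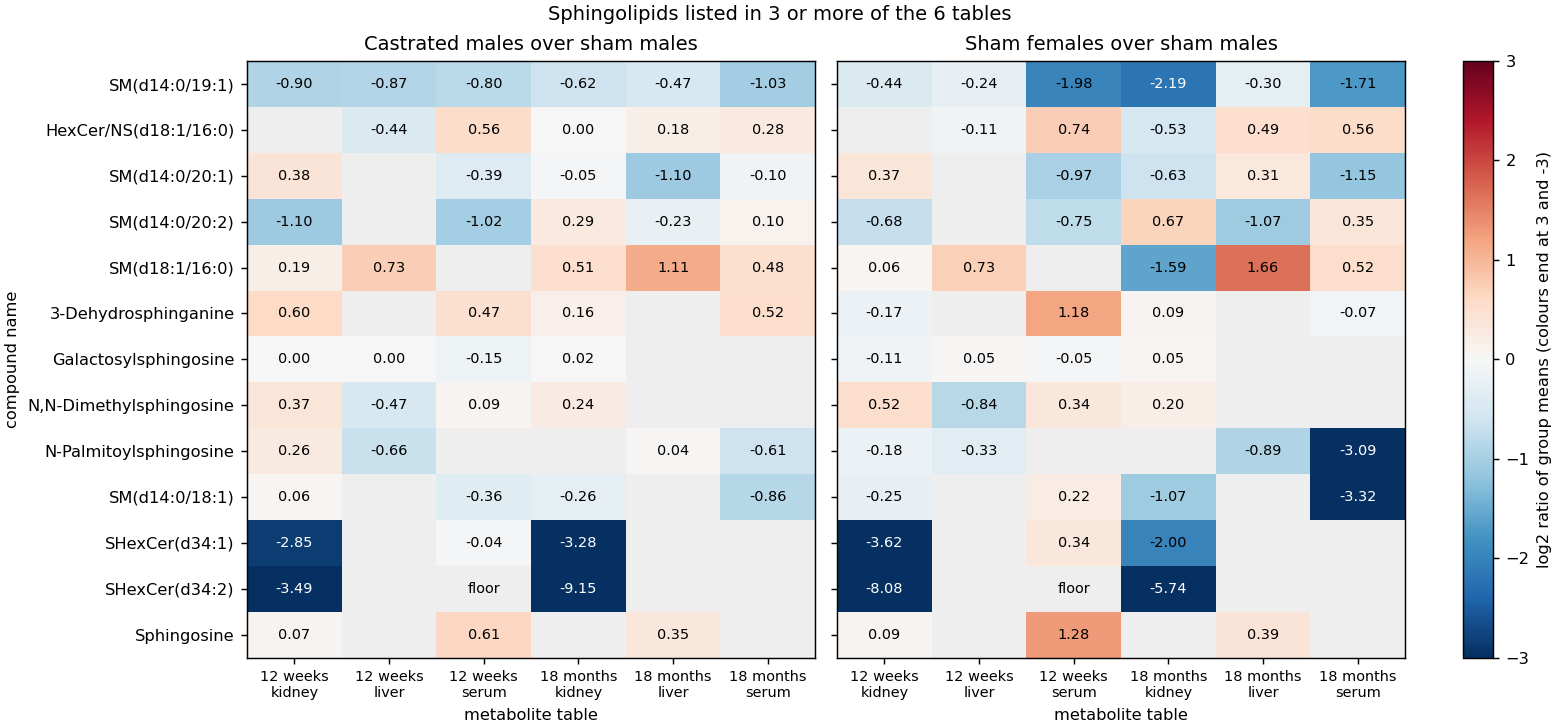
Log2 ratios of group means for the 13 sphingolipids listed in 3 or more tables (rows) by metabolite table (columns), for castrated males (left) and females (right) over sham males, with blue for lower, red for higher and grey for not listed; colours end at 3 and -3. The row of SM(d14:0/19:1) is below 0 in all 12 cells, and the cells marked floor are SHexCer(d34:2) of 12-week serum, whose sham male mean is at the lowest value of its column.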

How the data were processed

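The metabolite tables give a mean per arm for every compound that the authors named from its fragment spectrum. Their deposited values are a relative abundance signal in kidney and liver and a relative score in serum, with no unit stated in the file headers. The sources used here give neither scale nor normalization, annotation tool or animal numbers, so no value has an error or a test. The authors deposited RNA as group means, in FPKM at 12 weeks per the labels and as an expression signal of unnamed unit at 18 months. The tools named in the submitters' processing notes are HISAT2, SAMtools and Cufflinks, and the build is mm10. The deposited comparison tables hold the authors' p-values and adjusted p-values, at 12 weeks for 1 comparison per gene and at 18 months from DESeq2 with log2 folds, per the file headers. Those folds run sham males over the other arm, as checked against the means for 312 kidney and 274 liver genes of the castration comparison and 445 and 503 of the sex comparison. Depth is unknown.

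Log2 ratios of castrated males and of females over sham males were computed within each table with Python 3.11.15, pandas 2.3.3 and numpy 2.4.6, and the steps were checked on simulated data. HexCer, Cer( and SM were matched in the case written, ceramide and sphing in any case. In 12-week serum 2 rows without a name were left out. The rule leaves out ganglioside GA2 (d18:1/12:0) and soyacerebroside I of 12-week serum. Compounds past 2-fold anywhere or listed in 3 or more tables were named with values, and pathway genes that the authors' test called at an adjusted p under 0.05 and that changed 2-fold on mean + 1, with the genes of the sulfatide branch. Standard errors at 18 months were implied from the authors' log2 fold and p-value. Gene positions are from GENCODE vM21. Labels do not say which libraries share an animal, and p-values measure the spread between libraries. The members, gene lists and markers were chosen with earlier results of these data known. Alternatives changed the scaling, the name rule, the fold limit, the abundances kept and the summary. Some genes that met the naming rule are not reported here.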

Additional observations from a re-analysis of the deposited data

Results flagged for a closer look

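SHexCer(d34:2) went in opposite directions in kidney and in 12-week serum. In kidney its log2 ratio after castration was -3.49 at 12 weeks and -9.15 at 18 months, and in females -8.08 and -5.74. In 12-week serum the means of both arms were higher than that of sham males, which was at the lowest value of its column. SM(d18:1/16:0) at 18 months was lower in females in kidney, with a log2 ratio of -1.59, and higher in liver, with 1.66. Its sham male mean in liver was low, ranked 927 from the highest of 954 compounds. Neither difference between tissues was tested, since each arm has 1 mean.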

How the results depend on the processing

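With group means only, no library could be left out in turn, no outlier sought and no error given. No paired analysis was possible because the tables hold group means and no value per replicate number. The 8 log2 ratios of the kidney sulfatides kept their direction under median centring and under total-sum scaling. Medians over the sphingolipids moved by over 1.5-fold where summed means replaced the median: to -0.53 for castration in 12-week kidney, and to -1.52 for castration and -1.25 for females in 18-month kidney. Among the 12 medians the sign changed in 3 under centring, 2 under total-sum scaling, 2 with the name rule in the case written, 1 without the least abundant 25% of compounds and 4 with summed means. With a limit of 1.5-fold the sphingolipids past it numbered 5 for castration and 4 for females in 12-week kidney, 3 and 2 in 12-week liver, 17 and 28 in 12-week serum, 6 for castration in 18-month kidney and 8 for castration in 18-month serum. Without that 25% of compounds they numbered 3 and 7 in 12-week serum and 2 and 0 in 18-month liver, and under total-sum scaling 2 for females in 18-month liver. Total-sum scaling turned the balance after castration in 18-month serum to 1 lower and 2 higher. Leaving out compounds at a repeated lowest value, an alternative chosen after seeing the data, kept each count within 1.5 times and changed no sign. Averaging entries of the same name changed nothing, as no name was repeated within a table. By a 2-fold limit on mean + 1 without a test, the pathway genes past it numbered 9 for castration in 12-week kidney, 5 in 12-week liver, 5 for castration and 4 for females in 18-month kidney, and 6 for females in 18-month liver.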
